A study of Mus musculus with 4 samples.

Results

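The measurement described here is the genotype difference in the response to banding. For each gene it is the STIM1KO response (STIM1KO TAC minus STIM1KO sham) minus the WT response (WT TAC minus WT sham), on the log2 scale of quantile-normalized intensities. It uses all 4 arrays of the series of 4, chosen by their titles. TAC, transverse aortic constriction, is a ligature around the aortic arch that narrows it and loads the left ventricle with pressure. The 4 groups, with 1 array each, were STIM1KO TAC, STIM1KO sham, WT TAC and WT sham, all left ventricles of male C57BL/6 mice operated at 10 weeks of age over a wire of 0.3 mm and sampled 4 weeks later, at 14 weeks. Sham mice had the same surgery with no constriction. The labels do not say how the Stim1 gene was altered, whether 1 or both alleles were, in which cells, or how many mice gave the RNA of an array. The average heart weight to body weight value in the labels, given with no unit, was 4.9 in STIM1KO TAC and 4.5 in STIM1KO sham, against 6.7 in WT TAC and 4.1 in WT sham. The one group with heavy hearts was therefore WT TAC.

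STIM1 is a calcium sensor in the membrane of the endoplasmic and sarcoplasmic reticulum. When the store is empty it opens Orai channels in the plasma membrane, and the calcium that enters can activate calcineurin and through it NFAT transcription factors. In the pressure-loaded heart, calcineurin and CaMKII signalling are known to switch on fetal genes such as natriuretic peptides and the slow myosin heavy chain. A gene whose answer to pressure needs STIM1 would, in this contrast, show a response in WT and a smaller one in STIM1KO.

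A difference of 1 on the log2 scale, called 2-fold below, means that the ratio of TAC to sham was 2 times as large in one genotype as in the other. With 1 array per group there is no replicate, no test and no p-value, and having so few arrays limits how precise any value is. A change on any 1 of the 4 arrays gives the same difference, so each gene was also classed by the array that carries it. An array was said to stand apart when its gap to the nearest other array was at least 50% of the range of all 4 log2 values. Where none did, responses were called opposed if the STIM1KO TAC and WT sham values both lay above, or both below, the other 2, and otherwise no single array was named.

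The promoters of 4 genes are shown because their genes hold results given below. Chac1, the gene with the 4th largest positive difference, is a known target of the stress factor ATF4, and Myh7, Mybpc2 and Nppb are muscle genes whose response was lower in STIM1KO. Each sequence is 250 bases before and 50 after an annotated start, from RefSeq, GRCm38.p6. Capitals mark the amino acid response element TGATGNAA in Chac1 and the MCAT box CATTCC, a binding site of TEAD factors, in the others, on either strand. The regions are chr2:119350992-119351291 (+ strand) for Chac1, chr14:54994577-54994876 (- strand) for Myh7, chr7:44524620-44524919 (- strand) for Mybpc2 and chr4:147985650-147985949 (+ strand) for Nppb.
Chac1: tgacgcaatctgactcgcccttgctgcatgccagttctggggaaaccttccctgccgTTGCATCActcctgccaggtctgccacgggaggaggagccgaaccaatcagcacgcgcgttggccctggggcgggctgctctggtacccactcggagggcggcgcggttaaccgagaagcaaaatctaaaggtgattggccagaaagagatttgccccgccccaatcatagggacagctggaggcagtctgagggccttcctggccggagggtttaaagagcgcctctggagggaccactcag
Myh7: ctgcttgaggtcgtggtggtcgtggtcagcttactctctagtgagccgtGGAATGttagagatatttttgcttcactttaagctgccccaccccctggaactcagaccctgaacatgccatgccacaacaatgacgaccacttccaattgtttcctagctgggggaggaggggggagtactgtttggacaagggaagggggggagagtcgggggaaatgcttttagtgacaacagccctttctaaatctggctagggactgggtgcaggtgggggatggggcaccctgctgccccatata
Mybpc2: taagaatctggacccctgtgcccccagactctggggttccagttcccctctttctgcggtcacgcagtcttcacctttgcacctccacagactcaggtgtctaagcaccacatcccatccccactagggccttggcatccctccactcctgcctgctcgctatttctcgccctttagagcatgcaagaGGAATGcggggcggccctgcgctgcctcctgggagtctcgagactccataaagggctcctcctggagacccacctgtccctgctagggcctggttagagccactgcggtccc
Nppb: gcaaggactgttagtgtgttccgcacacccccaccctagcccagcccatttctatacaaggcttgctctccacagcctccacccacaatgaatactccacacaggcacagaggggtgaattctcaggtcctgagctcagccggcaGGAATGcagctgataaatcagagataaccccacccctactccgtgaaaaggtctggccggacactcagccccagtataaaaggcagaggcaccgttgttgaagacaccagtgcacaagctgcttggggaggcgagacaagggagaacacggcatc
The element in Chac1 begins 193 bases upstream of the start, and TGATGNAA occurs in 4.06% of 27025 promoters of this length. The MCAT box begins 201 bases upstream in Myh7, 62 in Mybpc2 and 105 in Nppb, and 14.6% of promoters hold one. For Myh7 the table also has a second start nearby, whose window holds no CATTCC. None of the 4 windows shown holds GGAAAA, a form of the NFAT site that 23.6% of promoters hold. The shorter GGAAA, the core of that site, is in the Chac1 and Myh7 windows shown and was not counted over all promoters. GGAAAA was found in 18 of 82 promoters of genes at 2-fold higher and in 2 of 39 of those at 2-fold lower. Among 5710 promoters of genes passing the filter its share was 21.0%. The MCAT box was in 13 of the 82 and 5 of the 39, against 12.4% of the 5710. TGATGNAA was in 3 and 1, against 2.14%. No difference between these sets was tested. No motif overlapped another in the windows shown. These are matches of letters and do not show binding.

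Of 23473 probes, 19607 had a value on all 4 arrays, and the counts per array ran from 21115 on STIM1KO sham to 21782 on STIM1KO TAC. After 1 probe was chosen per gene and dim genes were set aside, 7020 genes were compared, out of 14039 with a value on every array. Cardiomyocyte markers were bright on every array, as in Myh6, the adult myosin heavy chain, with an intensity of 12306 on STIM1KO TAC and 16894 on STIM1KO sham, against 14927 on WT TAC and 15832 on WT sham. The Stim1 probe was below the filter, with an intensity of 13.8 on STIM1KO TAC and 20.7 on STIM1KO sham, against 33.9 on WT TAC and 41.6 on WT sham. It was lower on both STIM1KO arrays than on both WT arrays, and its difference of responses was -0.29. The SD across genes was 0.42 in the STIM1KO response and 0.25 in the WT response.

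Of the 7020 genes, 101 (1.44%) were at 2-fold higher in the difference of responses and 50 (0.712%) at 2-fold lower, 2.15% in all. The median was -0.02, 50% of genes lay between -0.27 and 0.26, and 90% lay between -0.62 and 0.71. Centring each array on its median in place of quantile normalization gave 80 higher and 69 lower, and moved the median of all genes to -0.10. Just inside the threshold were Anapc10 (1.002) and Ranbp1 (-1.002), and just outside were Polr2b (0.999) and Id3 (-0.992). By level, the share at 2-fold was 2.62% in the dimmest 25% of genes and 2.05% in the brightest 25%.

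In the STIM1KO response 130 genes (1.85%) were at 2-fold, 88 higher (1.25%) and 42 lower (0.598%). In the WT response 22 were (0.313%), 8 higher (0.114%) and 14 lower (0.199%). Set genotype against genotype, 138 genes were at 2-fold between STIM1KO TAC and WT TAC (1.97%), 62 higher (0.883%) and 76 lower (1.08%). Between STIM1KO sham and WT sham there were 39 (0.556%), of which 2 were higher (0.0285%) and 37 lower (0.527%). Among the 101 genes with a higher difference, 56 were at 2-fold in the STIM1KO response alone, 7 in the WT response alone, 4 in both and 34 in neither. Among the 50 with a lower one, these counts were 18, 2, 0 and 30. The median of the 101 was 1.10 in the STIM1KO response and -0.20 in the WT response. For the 50 it was -0.87 in the STIM1KO response and 0.30 in the WT response. The 2 responses had opposite signs in 73 of the 101 and in 41 of the 50. These values describe genes chosen by the same contrast.

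**Figure D1:**
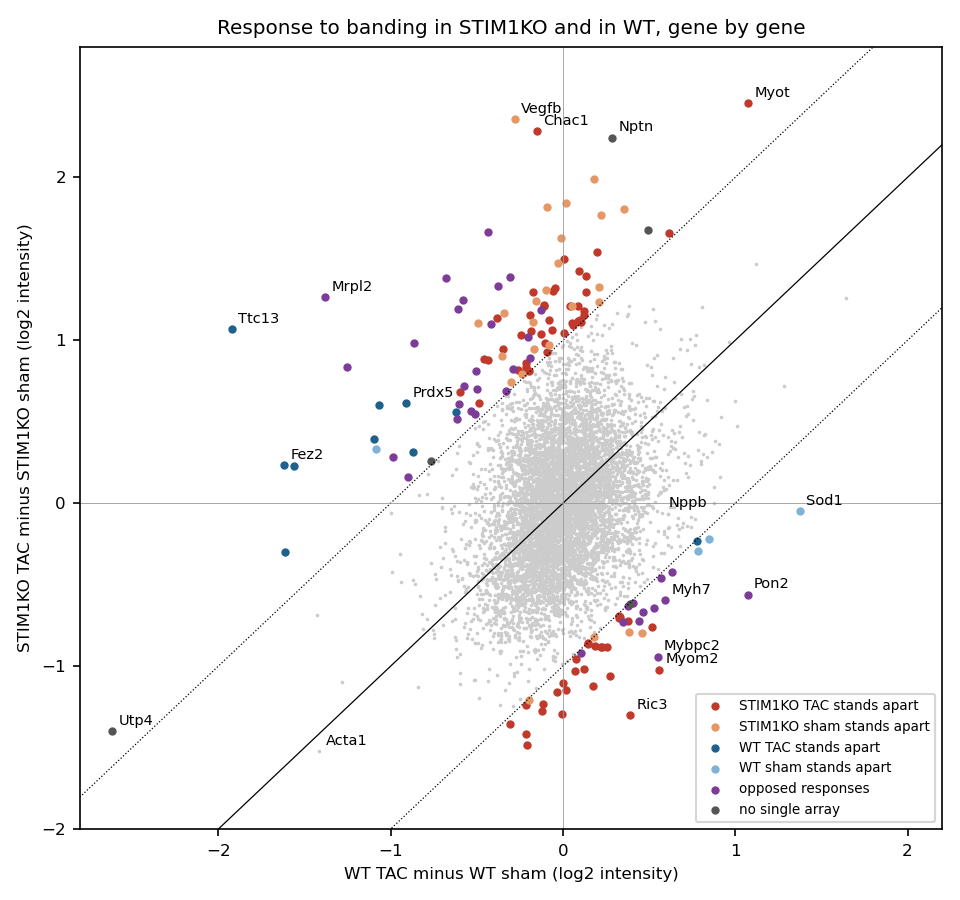
Each point is 1 of 7020 genes, with the STIM1KO response on the vertical axis and the WT response on the horizontal axis, both in log2 units. Coloured points are genes at 2-fold in the difference, coloured by the array that carries it, the solid line marks equal responses, dotted lines mark a difference of 1, and Camk2n1 (-5.62) lies off the plot. Of the 101 genes with a higher difference, 56 are at 2-fold on the vertical axis alone and 7 on the horizontal axis alone.

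One array stood apart in 110 of the 151 genes at 2-fold. It was STIM1KO TAC in 71 genes, STIM1KO sham in 25, WT TAC in 10 and WT sham in 4. Responses were opposed in 36 genes, and 5 had no single array. Over all 7020 genes STIM1KO TAC stood apart in 35.3%, STIM1KO sham in 8.86%, WT TAC in 6.31% and WT sham in 9.62%. The STIM1KO TAC array thus held the largest share both among genes at 2-fold (47.0%) and over all genes, and WT TAC, the array of the heavy hearts, the smallest share over all genes. With a stricter gap of 66.7% of the range, STIM1KO TAC stood apart in 43 of the 151, STIM1KO sham in 13, WT TAC in 5 and WT sham in 3.

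**Figure D2:**
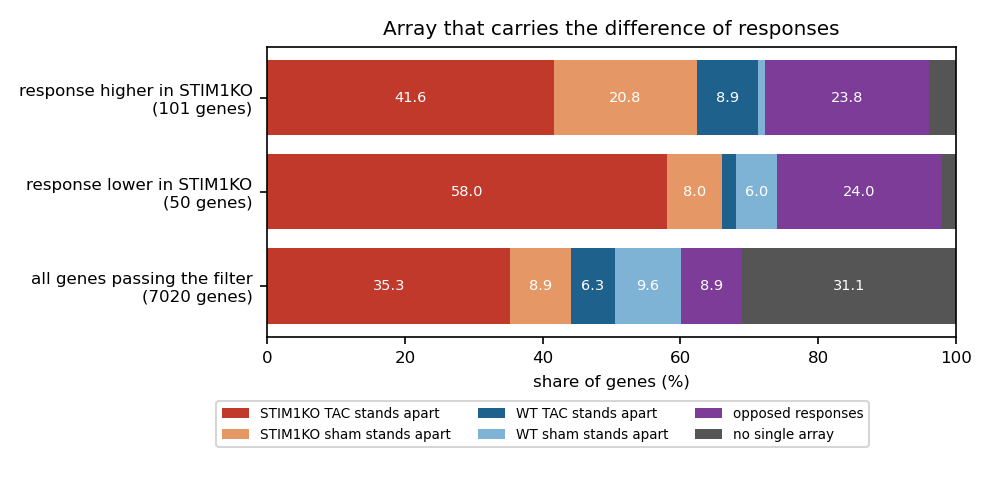
The bars give the share of genes, in percent, by the array that carries the difference of responses, for the 101 genes with a higher and the 50 with a lower response in STIM1KO and for all 7020 genes. STIM1KO TAC stood apart in 41.6% of the higher and 58.0% of the lower genes, and WT TAC in 9 of the 101 and 1 of the 50.

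In 10 genes the WT TAC array carried the difference. It was low in 9 and high in 1, so that most of each difference came from the WT response. Ttc13, which had the largest positive difference of all, had an intensity of 131 on STIM1KO TAC and 62.4 on STIM1KO sham, against 26.5 on WT TAC and 101 on WT sham. WT TAC was the lowest array, and STIM1KO TAC the highest, with a WT response of -1.92, a STIM1KO response of 1.07 and a difference of 2.99. Fez2 had intensities of 643 and 546 on the STIM1KO TAC and sham arrays, against 169 and 519 on the WT TAC and sham arrays. The other arrays were close together and WT TAC was lower, for a difference of 1.85.

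Prdx5, a peroxiredoxin that removes peroxides in mitochondria, peroxisomes and cytosol, had an intensity of 5788 on STIM1KO TAC and 3784 on STIM1KO sham, against 2050.3 on WT TAC and 3855 on WT sham. Both sham arrays were nearly equal, while banding went with a higher value in STIM1KO (0.61) and a lower one in WT (-0.91). Pdk4, the kinase that inhibits pyruvate dehydrogenase and so spares glucose, had intensities of 224 and 171 on the STIM1KO TAC and sham arrays, against 104 and 222 on the WT TAC and sham arrays. Here WT TAC was the low array and STIM1KO TAC lay near WT sham, with a difference of 1.49.

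The other genes low on WT TAC were Mfsd6 (1.79), Ap3m1 (1.67), a subunit of the AP-3 adaptor of vesicle traffic, Plac9 (1.31), Alg14 (1.18), which acts in the synthesis of N-glycans, and Mipep (1.18), a peptidase of the mitochondrial matrix. A second, dimmer Mfsd6 probe gave -0.18, and the mean of both probes 0.81. The gene high on WT TAC was Ier3, an immediate early gene that favours cell survival, with an intensity of 281 on STIM1KO TAC and 331 on STIM1KO sham, against 524 on WT TAC and 306 on WT sham. The other 3 arrays were close, and the difference was -1.01, which fell just short of 2-fold with an offset before log2.

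In 25 genes the STIM1KO sham array carried the difference, 21 of them low and 4 high. In those named here the genotypes lay further apart in sham than in banded hearts. STIM1KO sham was also the array with the fewest valued probes (21115). On it alone 537 probes were empty, against 255 on STIM1KO TAC, 317 on WT TAC and 340 on WT sham. Any link between this and the low values was not tested. Vegfb, a ligand of the VEGF receptor Flt1 that is abundant in heart muscle, had an intensity of 2172 on STIM1KO TAC and 423 on STIM1KO sham, against 2676 on WT TAC and 3247 on WT sham. STIM1KO sham was far below the other 3 arrays, and the STIM1KO response of 2.36 brought the gene near WT TAC. Arhgef3, a guanine nucleotide exchange factor, had intensities of 51.8 and 14.7 on the STIM1KO TAC and sham arrays, against 54.4 and 58.0 on the WT TAC and sham arrays. The 3 other arrays were within a narrow range, with a difference of 1.91.

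The malic enzyme Me1 differed by 1.51, and Timp4, an inhibitor of matrix metalloproteinases prominent in the heart, by 1.39. Rgs2, which shortens the signal of Gq-coupled receptors, had an intensity of 448 on STIM1KO TAC and 239 on STIM1KO sham, against 332 on WT TAC and 424 on WT sham. STIM1KO sham was the lowest array, with WT TAC between it and the other 2, for a difference of 1.26. Fbxo3 (1.82), Rpp25l (1.81), and Mrpl55 (1.60), a protein of the mitochondrial ribosome, were also in this class.

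The 4 genes high on STIM1KO sham were Gnb3, Hspa1l, Cytl1 and Trim72. Gnb3, a beta subunit of G proteins, had intensities of 62.8 and 109 on the STIM1KO TAC and sham arrays, against 66.8 and 48.6 on the WT TAC and sham arrays. STIM1KO sham was the highest array, and the difference was -1.26. Hspa1l, a chaperone of the HSP70 family, differed by -1.17. Trim72, which takes part in repair of the muscle cell membrane, differed by -1.01, by -0.94 with the values as deposited and by -0.89 with an offset.

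The STIM1KO TAC array carried the difference in 71 genes, 42 high and 29 low. Chac1, which breaks down glutathione, had an intensity of 86.5 on STIM1KO TAC and 17.8 on STIM1KO sham, against 34.8 on WT TAC and 38.7 on WT sham. STIM1KO TAC was the highest array and STIM1KO sham the lowest, and the WT response was small (-0.15), for a difference of 2.43. Myot, the Z-disc protein myotilin, had intensities of 307 and 55.9 on the STIM1KO TAC and sham arrays, against 92.1 and 43.8 on the WT TAC and sham arrays. It was higher after banding in both genotypes, by 2.46 in STIM1KO and 1.07 in WT, so that the difference was one of size.

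Psmb6, a catalytic subunit of the proteasome, had an intensity of 3079.6 on STIM1KO TAC and 1058 on STIM1KO sham, against 1502 on WT TAC and 1309 on WT sham, with the 3 other arrays well below it. Eno3, the muscle enolase, had intensities of 11320.1 and 6415 on the STIM1KO TAC and sham arrays, against 6158 and 7378 on the WT TAC and sham arrays, and likewise stood out on STIM1KO TAC only. Fbxo32, the ubiquitin ligase atrogin-1 of muscle wasting, differed by 1.34, Slc7a5, a transporter of large amino acids, by 1.21, and Slc25a11, the mitochondrial carrier of oxoglutarate and malate, by 1.28. Ccn1, a matricellular protein, had an intensity of 111 on STIM1KO TAC and 72.4 on STIM1KO sham, against 50.8 on WT TAC and 71.1 on WT sham, highest on STIM1KO TAC and lowest on WT TAC.

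Among the 29 genes low on STIM1KO TAC, Camk2n1, a protein inhibitor of the kinase CaMKII, had by far the most negative value, with an intensity of 2.31 on STIM1KO TAC and 111 on STIM1KO sham, against 92.4 on WT TAC and 90.5 on WT sham. The 3 other arrays were within a narrow range. The value on STIM1KO TAC lay under the first quartile of that array's deposited values (5.38), and this single value sets the difference of -5.62. With an offset before log2 it was -3.93. Ric3, a chaperone of nicotinic acetylcholine receptors, had intensities of 22.8 and 56.2 on the STIM1KO TAC and sham arrays, against 69.0 and 52.7 on the WT TAC and sham arrays, and differed by -1.69.

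Myom2, which links thick filaments at the M-band, had an intensity of 520.1 on STIM1KO TAC and 1056 on STIM1KO sham, against 1521 on WT TAC and 1033 on WT sham. Both sham arrays were nearly equal, STIM1KO TAC was the lowest and WT TAC the highest, with responses of -1.02 in STIM1KO and 0.56 in WT. Cox6a2, the heart and muscle form of a cytochrome c oxidase subunit, had intensities of 13038 and 23903 on the STIM1KO TAC and sham arrays, against 26444 and 23234 on the WT TAC and sham arrays. The 3 other arrays were close, and the difference was -1.06, just short of 2-fold with the values as deposited. Crhr2, the receptor of urocortins, differed by -1.27, the imprinted RNA H19 by -1.21, Kcne1, a subunit of a repolarizing potassium channel, by -1.13, and Tnfrsf12a, the receptor of the cytokine TWEAK, by -1.29. Scx, a transcription factor of tendon and fibroblasts, differed by -1.33, and Id2, an inhibitor of basic helix-loop-helix factors, by -1.14.

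**Figure D3:**
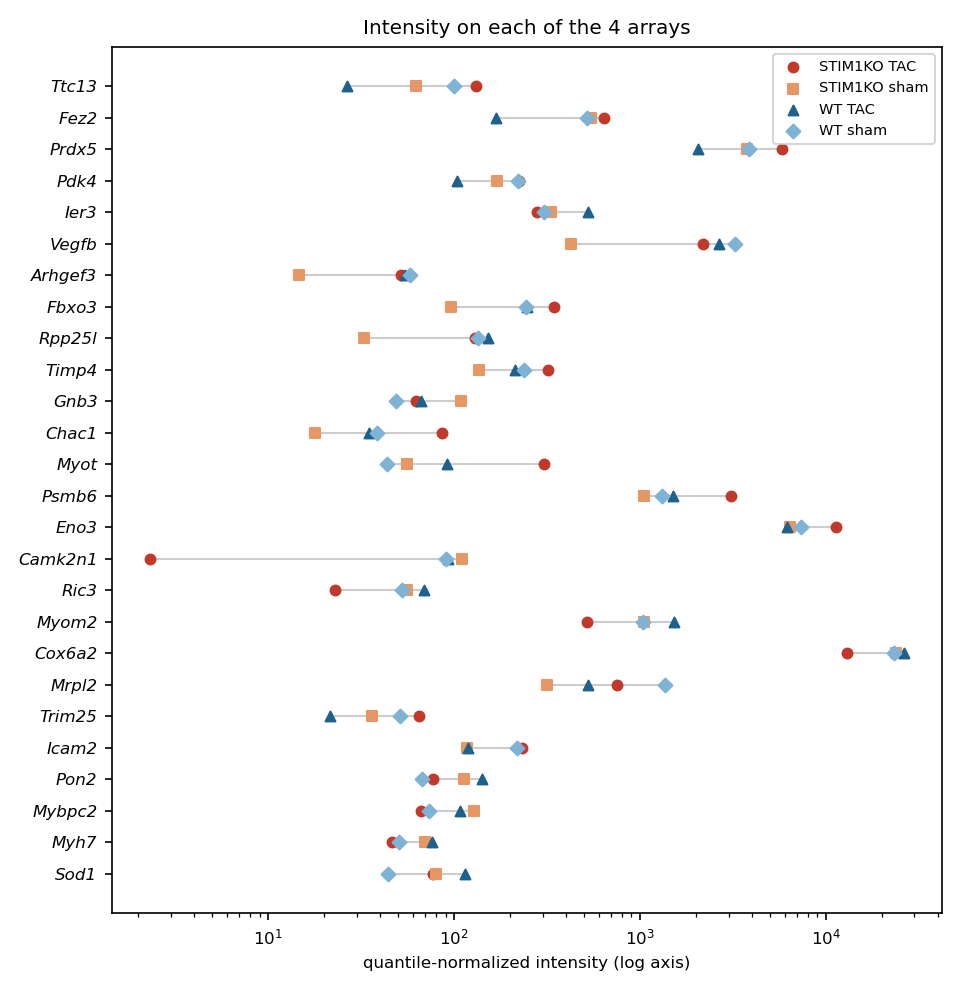
Quantile-normalized intensity, on a log axis, of 26 genes at 2-fold on each of the 4 arrays, ordered by the array that carries the difference. WT TAC lies apart in Ttc13, Fez2, Pdk4 and Ier3, STIM1KO sham in Vegfb, Arhgef3 and Rpp25l, and STIM1KO TAC in Psmb6, Eno3, Camk2n1 and Cox6a2.

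Responses were opposed in 36 genes, 24 of them with a higher and 12 with a lower difference. Mrpl2, a protein of the large mitochondrial ribosomal subunit, had an intensity of 758 on STIM1KO TAC and 315 on STIM1KO sham, against 525 on WT TAC and 1369 on WT sham. Banding went with a value higher by 1.26 in STIM1KO and a response of -1.38 in WT, and the sham arrays differed too. Trim25, a ubiquitin ligase of antiviral signalling, had intensities of 65.1 and 36.4 on the STIM1KO TAC and sham arrays, against 21.5 and 51.3 on the WT TAC and sham arrays, lowest on WT TAC and highest on STIM1KO TAC. Icam2, an adhesion molecule of endothelium and leukocytes, had an intensity of 232 on STIM1KO TAC and 118 on STIM1KO sham, against 119.6 on WT TAC and 218 on WT sham. Its values formed 2 pairs, STIM1KO TAC with WT sham and STIM1KO sham with WT TAC.

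Other genes of this kind were St8sia4 (2.10), which adds polysialic acid to proteins, Arrdc2 (2.06), Art4 (1.83), Sult1a1 (1.80), a sulfotransferase of phenols, and Cyba (1.10), a subunit of NADPH oxidase.

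The 12 genes with opposed responses and a lower difference included Myh7 and Mybpc2. Myh7, the slow form of myosin heavy chain, had an intensity of 46.5 on STIM1KO TAC and 70.2 on STIM1KO sham, against 76.3 on WT TAC and 50.6 on WT sham. STIM1KO sham and WT TAC were the 2 high arrays, and the responses were -0.59 in STIM1KO and 0.59 in WT. Mybpc2, the fast muscle form of myosin-binding protein C, had intensities of 66.4 and 128 on the STIM1KO TAC and sham arrays, against 108 and 73.5 on the WT TAC and sham arrays, with the same 2 arrays high. Pon2, an antioxidant enzyme, had an intensity of 76.6 on STIM1KO TAC and 113 on STIM1KO sham, against 142 on WT TAC and 67.4 on WT sham, highest on WT TAC. Ccl2, a chemokine that attracts monocytes, differed by -1.18, Mpc1, which carries pyruvate into mitochondria, by -1.13, and F3, tissue factor, by -1.02.

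The WT sham array carried 4 genes. Sod1, the cytosolic superoxide dismutase, had intensities of 77.5 and 80.1 on the STIM1KO TAC and sham arrays, against 114 and 43.9 on the WT TAC and sham arrays, lowest on WT sham and highest on WT TAC. The STIM1KO response was -0.05, the WT response 1.38, and the difference was -1.43. Pth1r, the receptor of parathyroid hormone, differed by -1.08, but a second, dimmer probe gave 0.52 and the mean of both -0.28. Trabd differed by -1.07 and C1qtnf12, a secreted adipokine, by 1.42. The 5 genes with no single array included Nptn, a cell surface protein that partners plasma membrane calcium pumps, with an intensity of 369.7 on STIM1KO TAC and 78.1 on STIM1KO sham, against 178 on WT TAC and 146 on WT sham. STIM1KO TAC was high and STIM1KO sham low, for a difference of 1.96. Of the 151 genes, 4 had a second probe with a value on all arrays, and 1 of these had the sign of the first. That was Acer2, with 0.01 against 1.08, and no second probe was at 2-fold with the same sign. The one second probe above the filter level, of Tdg, gave -0.49 against 1.05.

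The hypertrophy programme was described next, since WT TAC was the group with heavy hearts. The list has 27 genes, of which 24 were valued on every array and 18 were bright enough to pass. Of these 18, 12 were below 0 and 6 above, against 51.6% of all genes below 0, and the median was -0.25 against -0.02 for all genes. It ranged from -0.38 to -0.24 over 6 alternative settings, and 1 gene, Myh7, was at 2-fold. The median response was -0.20 in STIM1KO and 0.07 in WT. STIM1KO TAC stood apart in 6 of the 18, STIM1KO sham in 3, WT TAC in 1 and WT sham in 0. Over all 7020 genes these shares were 35.3%, 8.86%, 6.31% and 9.62%. STIM1KO TAC was the lowest array in 8, against 36.2% of all genes.

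Nppb, the B-type natriuretic peptide, had an intensity of 2919 on STIM1KO TAC and 3045 on STIM1KO sham, against 3778 on WT TAC and 2535 on WT sham. WT TAC was highest, and the other 3 arrays lay together, for a difference of -0.64. Nppa, the atrial natriuretic peptide, had intensities of 1136 and 1249 on the STIM1KO TAC and sham arrays, against 1684 and 1422 on the WT TAC and sham arrays, also highest on WT TAC, with -0.38. Over the 18 genes STIM1KO TAC was the highest array in 5, STIM1KO sham in 6, WT TAC in 5 and WT sham in 2, against 37.5%, 19.2%, 16.9% and 26.5% of all 7020. Acta1, skeletal alpha-actin, had an intensity of 688 on STIM1KO TAC and 1973 on STIM1KO sham, against 706 on WT TAC and 1881 on WT sham. It was lower after banding in both genotypes, and the difference was only -0.11. Rcan1, the calcineurin inhibitor that NFAT induces, had intensities of 283 and 372 on the STIM1KO TAC and sham arrays, against 292 and 277 on the WT TAC and sham arrays, highest on STIM1KO sham. In the other direction, Des, the intermediate filament desmin, differed by 0.72 and Ccn2, connective tissue growth factor, by 0.62.

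**Figure D4:**
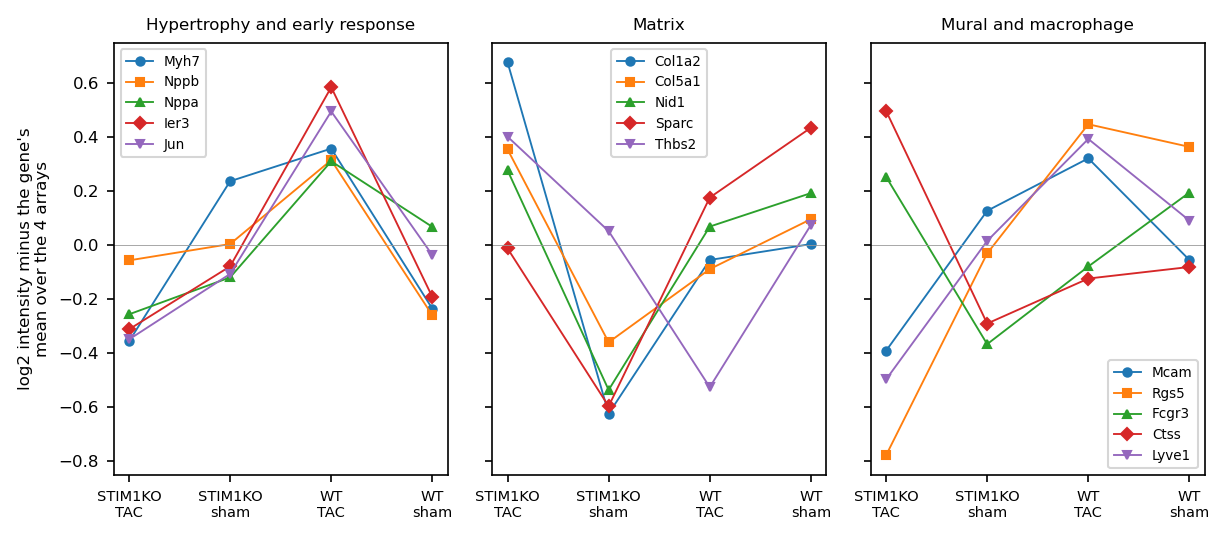
The log2 intensity of 15 genes on each array minus the gene's mean over the 4 arrays, with lines joining the values of 1 gene. Myh7, Nppb, Nppa, Ier3 and Jun are all highest on WT TAC, Col1a2, Col5a1, Nid1 and Sparc are lowest on STIM1KO sham, and Thbs2 is lowest on WT TAC. Over the 18 hypertrophy genes that passed the filter, WT TAC was the highest array in 5.

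Immediate early genes code for transcription factors and regulators that cells switch on within minutes of a stimulus. Of 18 that passed the filter, 12 were below 0, with a median of -0.09. It was -0.38 over the 9 genes left by the 75th percentile filter, -0.21 with median centring and -0.04 over 29 genes with no filter. Ier3 was at 2-fold lower and Ccn1 at 2-fold higher. Jun, a subunit of the AP-1 factor, had an intensity of 74.9 on STIM1KO TAC and 88.7 on STIM1KO sham, against 135 on WT TAC and 93.1 on WT sham. WT TAC was the high array, for a difference of -0.78. Klf2, a factor of endothelial quiescence, had intensities of 85.8 and 146 on the STIM1KO TAC and sham arrays, against 168 and 168 on the WT TAC and sham arrays, and here STIM1KO TAC was the low array. STIM1KO TAC was the highest array in 6 of the 18 and WT TAC in 6, against 37.5% and 16.9% of all genes. STIM1KO TAC was the lowest in 9, against 36.2% of all genes.

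Store-operated calcium entry genes had small differences. Of 20 in the list, 17 had values on all arrays and 9 passed the filter. Of the 9, 8 were below 0, against 51.6% of all genes, with a median of -0.21 and none at 2-fold. With no filter 13 of the 17 were below 0, with a median of -0.22. The 75th percentile filter left 2 genes with a median of -0.09. Orai3, a pore subunit, had an intensity of 62.5 on STIM1KO TAC and 70.3 on STIM1KO sham, against 79.2 on WT TAC and 64.1 on WT sham, highest on WT TAC. Esyt1, a tether between reticulum and plasma membrane, was the one above 0, at 0.30. In the 10 calcineurin and NFAT genes, 6 were above 0 and the median was 0.11, or -0.12 with no filter on dim genes. In the 8 CaMKII and calmodulin genes, 6 were below 0 with a median of -0.16, or -0.10 over 12 genes with no filter. Apart from Camk2n1 they spanned -0.33 for Camk2a to 0.27 for Camkk2. Camk2d, the main cardiac CaMKII gene, differed by -0.26.

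Of 14 genes of calcium cycling in the sarcoplasmic reticulum, 10 were below 0, against 51.6% of all genes. The median was -0.13, or -0.29 with median centring. Srl, the luminal calcium-binding protein sarcalumenin, had intensities of 117 and 193 on the STIM1KO TAC and sham arrays, against 192 and 179 on the WT TAC and sham arrays. STIM1KO TAC was low and the other 3 arrays were close, for a difference of -0.82. Calr, the chaperone calreticulin, differed by -0.63 and Tmem38a, the potassium channel TRIC-A of the reticulum, by -0.51. Atp2a2, the calcium pump SERCA2, had an intensity of 18663 on STIM1KO TAC and 22702 on STIM1KO sham, against 19436 on WT TAC and 22342 on WT sham. It was slightly lower after banding in both genotypes, with a difference of -0.08. Cacna2d1, which assists voltage-gated calcium channels, was at 2-fold lower after banding in both genotypes, and its difference was 0.18.

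Among contractile genes the differences went both ways. Of 21 sarcomere genes, 11 were below 0 and the median was -0.03, or 0.02 with the 75th percentile filter. Myl1, an essential myosin light chain, had intensities of 539 and 451 on the STIM1KO TAC and sham arrays, against 841 and 1427 on the WT TAC and sham arrays. It was at 2-fold higher at 1.02, but at 0.86 with median centring. Of 17 Z-disc genes, 12 were above 0, against 48.4% of all genes, with a median of 0.17. Of the 17, 10 had their highest value on STIM1KO TAC, against 37.5% of all genes. With median centring 9 of the 17 were above 0 and the median was 0.05. Of 13 genes of the intercalated disc, which joins heart muscle cells, 10 were above 0, against 48.4% of all genes, with a median of 0.21. With median centring 8 were above 0, with a median of 0.07. Pkp2, the desmosome protein plakophilin-2, had an intensity of 495 on STIM1KO TAC and 314 on STIM1KO sham, against 323 on WT TAC and 365 on WT sham, highest on STIM1KO TAC, and Gja1, the gap junction protein connexin 43, had intensities of 2123 and 1669.9 on the STIM1KO TAC and sham arrays, against 2079 and 2151 on the WT TAC and sham arrays, lowest on STIM1KO sham.

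Most matrix genes that passed the filter had a positive difference. Of 14 collagen genes passing the filter, out of 18 with values and 23 in the list, 11 were above 0, with a median of 0.13. With median centring only 7 of the 14 were above 0 and the median was 0.009, and the 75th percentile filter left 8 genes with a median of 0.40. Of 29 other matrix genes, 20 were above 0, against 48.4% of all genes, with a median of 0.25 and a range of 0.16 to 0.25. The median response of the 29 was -0.008 in STIM1KO and -0.14 in WT, and that of the collagens 0.04 and -0.15. WT sham was the highest array in 12 of the 29 and in 6 of the 14 collagens, against 26.5% of all genes. Col1a2, a chain of type I collagen, was the one at 2-fold, with an intensity of 317 on STIM1KO TAC and 128 on STIM1KO sham, against 190.4 on WT TAC and 198 on WT sham. It was high on STIM1KO TAC and low on STIM1KO sham, with both WT arrays between. Nid1, a linker of basement membranes, had intensities of 476 and 271 on the STIM1KO TAC and sham arrays, against 412 and 449 on the WT TAC and sham arrays, and Sparc, a collagen-binding matricellular protein, had an intensity of 750.0 on STIM1KO TAC and 499.9 on STIM1KO sham, against 855 on WT TAC and 1023 on WT sham. In both, STIM1KO sham was low. Thbs2, a thrombospondin that restrains angiogenesis, had intensities of 51.1 and 40.1 on the STIM1KO TAC and sham arrays, against 26.9 and 40.7 on the WT TAC and sham arrays, and there WT TAC was low.

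The arrays behind the matrix values differed from gene to gene. Of the 43 collagen and other matrix genes counted in the 2 lists, STIM1KO TAC stood apart in 9, STIM1KO sham in 7, WT TAC in 2 and WT sham in 8. Over all 7020 genes these shares were 35.3%, 8.86%, 6.31% and 9.62%. In the matrix lists STIM1KO TAC thus held a smaller share than over all genes, and each sham array a larger one. Col1a1, the other chain of type I collagen, was below the filter, with an intensity of 19.7 on STIM1KO TAC and 28.4 on STIM1KO sham, against 31.1 on WT TAC and 35.5 on WT sham and a difference of -0.34, the opposite sign to Col1a2. Fibroblast markers, of which 18 of 20 passed the filter, had 10 above and 8 below 0 and a median of 0.03, or -0.04 with median centring. Their summed intensity was 9919.9 on STIM1KO TAC and 12964 on STIM1KO sham, against 13992 on WT TAC and 16444 on WT sham. In whole ventricle, fewer cells of a type and less RNA per cell cannot be told apart, and the part of fibroblasts in the matrix values was not tested. Dcn, the proteoglycan decorin, differed by -0.56 and Vim, vimentin, by -0.64, both against the direction of the matrix medians.

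Signals that act on the matrix were mixed. Of 16 TGF-beta and BMP signalling genes, 9 were below 0 and the median was -0.15, or -0.47 over the 9 genes left by the 75th percentile filter and -0.24 with median centring. Id3, a target of BMP signalling like Id2, had an intensity of 191 on STIM1KO TAC and 375 on STIM1KO sham, against 565 on WT TAC and 556 on WT sham. STIM1KO TAC was lowest and both WT arrays were close, for a difference just under 2-fold. Eng, the co-receptor endoglin, differed by -0.82 and Smad6, an inhibitor of BMP signalling, by -0.80. Timp3 differed by -0.47, against 1.39 for Timp4.

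Markers of other cell types had patterns of their own. Of 15 macrophage and monocyte markers that passed the filter, out of 20 with values and 24 in the list, 11 were above 0 with a median of 0.28 and a range of 0.16 to 0.29. STIM1KO sham was the lowest array in 9 of the 15, against 18.6% of all genes, and STIM1KO TAC in the other 6. Fcgr3, an Fc receptor, had intensities of 124 and 80.5 on the STIM1KO TAC and sham arrays, against 98.3 and 119 on the WT TAC and sham arrays, and Ctss, cathepsin S, had an intensity of 89.9 on STIM1KO TAC and 52.0 on STIM1KO sham, against 58.4 on WT TAC and 60.2 on WT sham. Lyve1, which marks resident macrophages and lymphatic vessels, went the other way, with intensities of 71.9 and 103 on the STIM1KO TAC and sham arrays, against 133 and 108 on the WT TAC and sham arrays. The summed intensity of the list was 3488 on STIM1KO TAC and 2840.5 on STIM1KO sham, against 3370.02 on WT TAC and 3308 on WT sham.

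Smooth muscle and pericyte markers had the lowest median of the lists with at least 5 genes, -0.41 over 9 genes, with a range of -0.51 to -0.13, and 6 of the 9 were below 0. Mcam, an adhesion molecule of mural cells, had an intensity of 51.4 on STIM1KO TAC and 73.6 on STIM1KO sham, against 84.3 on WT TAC and 64.9 on WT sham, with STIM1KO TAC lowest and WT TAC highest. Rgs5, a pericyte regulator of G protein signalling, had intensities of 140.3 and 236 on the STIM1KO TAC and sham arrays, against 329 and 310.1 on the WT TAC and sham arrays, low on STIM1KO TAC. Des, 1 of the 3 markers above 0, differed by 0.72. It is also expressed in heart muscle and is the largest part of the summed intensity of the list. The sum was 3686 on STIM1KO TAC and 3959 on STIM1KO sham, against 3373 on WT TAC and 3843 on WT sham. It was lower after banding in both genotypes but less so in STIM1KO, which is against the direction of the median. Endothelial markers were divided, with 7 of 16 above 0, 9 below and a median of -0.12 that was -0.23 with median centring. STIM1KO TAC was the lowest array in 10 of the 16 and STIM1KO sham in 5, against 36.2% and 18.6% of all genes. Flt1 differed by 0.96 and Gpihbp1, the endothelial anchor of lipoprotein lipase, by 0.74, both lowest on STIM1KO sham, and Eng, lowest on STIM1KO TAC, by -0.82. The summed intensity was 9150.4 on STIM1KO TAC and 9539.8 on STIM1KO sham, against 10962 on WT TAC and 12104 on WT sham. The part of these cells in other values was not tested.

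Most chaperones that passed the filter had a negative difference. Of 27 that passed the filter, 20 were below 0, against 51.6% of all genes, with a median of -0.21. With median centring it was -0.35, against -0.10 for all genes. STIM1KO TAC was the lowest array in 14, against 36.2% of all genes, and STIM1KO sham the highest in 9, against 19.2%. Hspa8, the constitutive HSP70, had an intensity of 9205 on STIM1KO TAC and 12716 on STIM1KO sham, against 12596 on WT TAC and 8995 on WT sham. STIM1KO sham and WT TAC were high, and the difference was -0.95, with -0.71 for a second probe. Hspb7, a small heat shock protein of heart muscle, had intensities of 926 and 1410.3 on the STIM1KO TAC and sham arrays, against 1410.3 and 1377 on the WT TAC and sham arrays, low on STIM1KO TAC alone.

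The unfolded protein and integrated stress response list showed no common direction, with 12 genes above and 12 below 0. Chac1 at 2.43 was the one at 2-fold. Atf4, of which Chac1 is a known target, had an intensity of 244 on STIM1KO TAC and 347 on STIM1KO sham, against 405 on WT TAC and 343 on WT sham. It was low on STIM1KO TAC and differed by -0.75, the opposite sign to Chac1. Binding of ATF4 to the element shown above was not tested. Sdf2l1 and Pdia6, which act in protein folding in the reticulum, differed by -0.73 and -0.73.

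**Figure D5:**
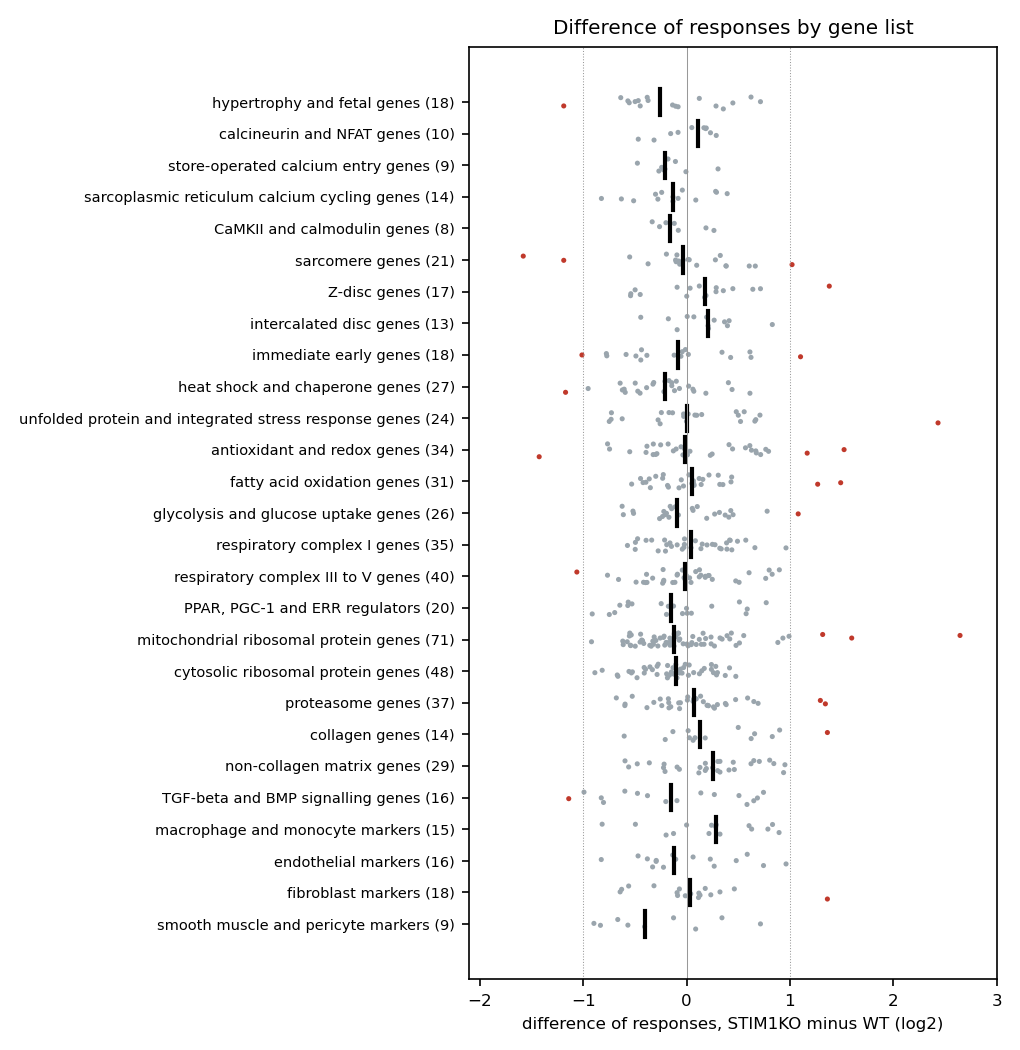
Each point is a gene that passed the filter, placed by its difference of responses (log2) in 27 lists, with the number of genes in brackets. Black bars are medians, red points are at 2-fold, and Camk2n1 is off the scale. Medians run from -0.41 in smooth muscle and pericyte markers to 0.28 in macrophage and monocyte markers, while most points of every list lie between -1 and 1.

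Of 31 fatty acid oxidation genes, 17 were above 0, with a median of 0.05 that was below 0 with the values as deposited and -0.11 with median centring. Pdk4 and Ucp3, a mitochondrial uncoupling protein, were at 2-fold higher, against 1.44% of all genes, and both are known targets of PPAR factors. Ucp3 had intensities of 63.0 and 51.7 on the STIM1KO TAC and sham arrays, against 43.7 and 86.5 on the WT TAC and sham arrays, low on WT TAC and STIM1KO sham. Of 20 PPAR, PGC-1 and ERR regulators, 13 were below 0, with a median of -0.15, or 0.005 with the 75th percentile filter. Ppara had an intensity of 63.2 on STIM1KO TAC and 92.5 on STIM1KO sham, against 123 on WT TAC and 107 on WT sham, lowest on STIM1KO TAC and highest on WT TAC, and Esrrg differed by 0.77 in the other direction.

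Of 26 glycolysis and glucose uptake genes, 14 were below 0 with a median of -0.09 (-0.18 with median centring), and STIM1KO TAC stood apart in 14, against 35.3% of all genes. Eno3 was at 2-fold. Hk2, the insulin-regulated hexokinase of muscle, had intensities of 780.2 and 432 on the STIM1KO TAC and sham arrays, against 627 and 596 on the WT TAC and sham arrays, lowest on STIM1KO sham, and Slc2a1, the glucose transporter GLUT1, had an intensity of 54.5 on STIM1KO TAC and 59.1 on STIM1KO sham, against 73.1 on WT TAC and 51.5 on WT sham, highest on WT TAC. In respiratory complex I, 18 of 35 genes were above 0 with none at 2-fold, and the median of 0.04 turned to -0.08 with median centring and was also below 0 with the values as deposited. In complexes III to V, 22 of 40 were below 0. Subunits of ATP synthase were among the higher ones, with Atp5a1 at 0.83 and Atp5l at 0.80, and Atp5a1 had intensities of 11094 and 5534 on the STIM1KO TAC and sham arrays, against 5901 and 5227 on the WT TAC and sham arrays, high on STIM1KO TAC alone.

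Of 71 mitochondrial ribosomal protein genes, 43 were below 0, with a median of -0.12. With median centring it was -0.27, against -0.10 for all genes. Of the 71, 3 were at 2-fold higher (Mrpl2, Mrpl55 and Mrpl44) and none at 2-fold lower, against 1.44% and 0.712% of all genes. Responses were opposed for Mrpl2 and Mrpl44, and STIM1KO sham carried Mrpl55. Of 48 cytosolic ribosomal protein genes, 33 were below 0, with a median of -0.10 that was -0.19 with median centring, and none was at 2-fold. Rplp1, a protein of the ribosomal stalk, had an intensity of 2524 on STIM1KO TAC and 2789.7 on STIM1KO sham, against 4249.8 on WT TAC and 2540.2 on WT sham, high on WT TAC. Many ribosomal protein genes have near-identical pseudogenes, so these probe values are uncertain. Of 37 proteasome genes, 22 were above 0, with a median of 0.07 that turned to -0.07 with median centring and was also below 0 with the values as deposited. Psmb6 and Psmb4 were at 2-fold higher, against 1.44% of all genes. Psmb4 had intensities of 3643 and 2209 on the STIM1KO TAC and sham arrays, against 2017 and 3000.4 on the WT TAC and sham arrays, in 2 pairs like Icam2.

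Of 34 antioxidant genes, 16 were above and 18 below 0, against 48.4% and 51.6% of all genes. Prdx5 and Gsta3, a glutathione transferase, were at 2-fold higher, and Sod1 at 2-fold lower. Over all genes 1.44% were at 2-fold higher and 0.712% at 2-fold lower. Gsta3 had an intensity of 164 on STIM1KO TAC and 79.9 on STIM1KO sham, against 94.2 on WT TAC and 103 on WT sham, high on STIM1KO TAC, whereas Prdx5 was carried by WT TAC and Sod1 by WT sham.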

How the data were processed

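Left ventricle RNA from 4 groups was measured on 1 single-channel array each. The labels' protocols describe amino allyl amplification of the RNA and Cy5 dye. For each probe the authors deposited 1 intensity on a linear scale, and the median of each array's values is about 20.0. Not given in the sources used here are the scanner, any background correction and why some cells are empty. Arrays were grouped by title. Probe symbols came from the platform annotation, with 3947 updated through a GRCm38.p6 gene table. Of 23473 probes, 16631 had 1 symbol, 0 several and 6842 none.

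Intensities were taken to log2 and quantile normalized over the 19607 probes valued on all arrays (Python 3.11.15, numpy 2.4.6, pandas 2.3.3), since array medians spread over 0.101. The brightest probe stood for a gene, and genes under the median level (4.87, an intensity of 29.3) were left out. No test was possible. Genes and lists were called by a fold of 2 and described by counts and medians. Named genes were Stim1, the 15 largest each way at 2-fold, the 4 largest per class and direction, up to 4 members of each of 44 lists, and 10 fixed markers, leaving out clone names. Outside it, Plac9, Alg14, Mipep, Me1, Rgs2, Fbxo32, Slc7a5, Slc25a11, Cyba, F3, Smim3 and the genes at the edge of the threshold were chosen after their values were seen. Members and lists were chosen with earlier results of these data known. Alternatives were median centring, deposited values, no filter, a 75th percentile filter, an offset of 5.49, the mean over probes, thresholds of 1.5-fold and 3-fold, and a gap of 66.7%. Promoters on mouse chromosome 18 were left out. The steps were checked on simulated data.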

Additional observations from a re-analysis of the deposited data

Results flagged for a closer look

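In 11 of the 7020 genes, banding went with a change of at least 1.5-fold in each genotype, in opposite directions. Such changes put a gene at 2-fold in the difference by arithmetic, so all 11 are among the 151 genes at 2-fold. With 1 array per group the difference was not tested. The difference of responses was 2.99 for Ttc13, 2.65 for Mrpl2, 2.09 for Trim25, 2.06 for Arrdc2 and 1.85 for Icam2. It was 1.80 for Sult1a1, 1.67 for Ap3m1, 1.52 for Prdx5, 1.28 for Ciart and 1.21 for Smim3. In these 10 the STIM1KO response was positive and the WT response negative. Myh7, at -1.19, was the one gene of the opposite kind, with -0.59 in STIM1KO and 0.59 in WT. Of the 151 genes, 101 had a higher and 50 a lower difference. Ciart had an intensity of 53.8 on STIM1KO TAC and 33.6 on STIM1KO sham, against 23.2 on WT TAC and 35.2 on WT sham, and Arrdc2 had intensities of 99.2 and 38.0 on the STIM1KO TAC and sham arrays, against 48.8 and 78.1 on the WT TAC and sham arrays.

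Probes with no gene symbol were used in no comparison. Of 2117 such probes above the filter level, 24 were at 2-fold higher and 30 at 2-fold lower in the difference of responses. That is 2.55%, against 2.15% of named genes.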

How the results depend on the processing

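No paired analysis was possible because each group has 1 array, and for the same reason no array could be left out. Counts at 2-fold moved with the filter and the threshold. With no filter on dim genes, 725 genes were higher and 481 lower, with STIM1KO TAC standing apart in 413, STIM1KO sham in 163, WT TAC in 113, WT sham in 93, opposed responses in 383 and no single array in 41. With the 75th percentile filter the counts were 47 higher and 14 lower, and by class 29, 16, 6, 0, 8 and 2 in the same order. At 1.5-fold they were 572 higher and 417 lower, and 548, 100, 52, 33, 217 and 39 by class. At 3-fold they were 21 higher and 3 lower, and 3, 6, 4, 0, 10 and 1. With the offset before log2, 25 genes were lower, WT sham stood apart in 2, and responses were opposed in 23. A gap of 66.7% of the range left STIM1KO TAC in 43, STIM1KO sham in 13 and WT TAC in 5, with 72 opposed and 15 with no single array, and 105 of 151 genes kept their class. Except with the offset, where the cause was not tested, these settings changed the number of genes, the threshold or the gap. Median centring shared 80 of its higher and 50 of its lower genes with quantile normalization, and its higher share was 53.7% in place of 66.9%, or 77.7% with the offset and 77.0% with the 75th percentile filter. The cause of these shifts was not tested. Of 65 named genes at 2-fold, none changed sign in any setting, and at most 7 fell below 2-fold in 1 setting. The choice of filter does not alter a gene's own value, so those settings could not turn a sign. The 75th percentile filter kept 26 of the 65. The mean over probes can alter only genes with more than 1 probe. Of the 44 lists, the direction of the median turned in at least 1 setting in 21. Median centring also moved the median of all genes, from -0.02 to -0.10. List medians given with median centring are to be read against that value. Relative to the median of all genes, lists such as proteasome, complex I, potassium channel, interferon and fibroblast never turned. The antioxidant and complex III to V lists turned only in this relative sense. Most intensities come from 1 probe per gene, and dim values such as that of Camk2n1 have no fixed size.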

Other observations

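Of 13 cell cycle genes that passed the filter, 9 were below 0 in the difference of responses, with a median of -0.24 against -0.02 for all genes, and STIM1KO TAC was the lowest array in 8, against 36.2%. The median was -0.06 over 32 genes with no filter. H2az1, a histone variant, had an intensity of 127 on STIM1KO TAC and 308 on STIM1KO sham, against 425 on WT TAC and 462 on WT sham. STIM1KO TAC was the low array, for a difference of -1.15. Cdkn1c, an imprinted inhibitor of cyclin-dependent kinases, had intensities of 89.0 and 173 on the STIM1KO TAC and sham arrays, against 159.7 and 177 on the WT TAC and sham arrays, again low on STIM1KO TAC. In the insulin-like growth factor list 8 of 13 genes were below 0, with a median of -0.28, or 0.04 with the 75th percentile filter. H19 had an intensity of 18.8 on STIM1KO TAC and 50.2 on STIM1KO sham, against 38.5 on WT TAC and 44.7 on WT sham, and Igf2, its imprinted neighbour, differed by -0.59.

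Clock genes showed a WT sham pattern in 2 members. Nfil3 had an intensity of 46.9 on STIM1KO TAC and 49.2 on STIM1KO sham, against 47.0 on WT TAC and 30.8 on WT sham, and Bhlhe40 had intensities of 136 and 157 on the STIM1KO TAC and sham arrays, against 156 and 103 on the WT TAC and sham arrays. Both were low on WT sham, with differences of -0.68 and -0.81. Ciart, a repressor of the clock, was at 2-fold higher, and the median of the 10 clock genes was 0.07, below 0 with median centring and with the mean over probes. The time of day at sampling is not given in the labels. Of 20 interferon response and antigen presentation genes, 15 were above 0 with a median of 0.08 (-0.003 with median centring), and none was at 2-fold. Potassium channel genes (6 passed the filter) had a median of 0.01 and renin-angiotensin and adrenergic receptor genes (8 passed) of 0.07, and both medians turned below 0 with median centring, and each list had 1 gene at 2-fold lower, Kcne1 and Crhr2. Of 6 atrial markers 4 were below 0, with a median of -0.22, or 0.03 with the 75th percentile filter. Skeletal muscle markers had a median of -0.06 over 6 genes. Fewer than 5 genes passed in the lymphocyte (2), adipocyte and epicardial (4), erythroid (1) and voltage-gated calcium channel (2) lists.

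Of probes with a value on 3 of the 4 arrays, 255 were empty on STIM1KO TAC, 537 on STIM1KO sham, 317 on WT TAC and 340 on WT sham. They entered no comparison.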
